A study of Mus musculus with 3 samples.

Results

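The genes described here are 10 members of the VEGF and angiopoietin systems. The ligands are Vegfa, Vegfb, Vegfc, Angpt1 and Angpt2, and the receptors are Kdr (VEGFR2), Flt1 (VEGFR1), Nrp1, Tek (Tie2) and Tie1. They were chosen by symbol and make up 10 of the 31058 rows of the gene table. Their raw UMIs (unique molecular identifiers, each standing for 1 captured RNA molecule) were summed over the cells of each marker-defined class in each library, with capillary endothelial cells (rich in Ehd3) kept apart from Sox17-rich ones, and scaled to UMIs per 1000000 UMIs of that class and library (CPM). The cells came from mouse kidney glomeruli and were read with 3′ single-cell libraries, 1 library per group. The male group was a healthy C57Bl/6 male carrying Pax2.rtTA, TetO.Cre and R26.Confetti. The female ERaKO group was a healthy C57Bl/6 female carrying the same alleles plus ERalphaKO, a knockout of estrogen receptor alpha that the labels title RPC-ERαKO. The female group was a healthy C57Bl/6 female carrying the male's alleles without ERalphaKO. Doxycycline was given to all groups at 20 days and tracing ended at 90 days. The Cre is reached through rtTA from a Pax2 promoter, so recombination is tied to cells with Pax2 promoter activity at induction. The labels give neither the deleted part of Esr1, nor the cells in which it was lost, nor how many animals a suspension held. With 1 library per group no difference between groups can be tested, and each interval given below is a 95% interval of counting error only.

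VEGF-A is a secreted growth factor that glomerular podocytes make throughout life, and the neighbouring capillary endothelium needs it to keep its pores. It signals mainly through Kdr, while Flt1 binds it tightly and signals weakly, and Nrp1 is a co-receptor that strengthens signalling through Kdr. The angiopoietins act on Tek: Angpt1 activates it and steadies vessels, Angpt2 mostly opposes Angpt1, and Tie1 is a related receptor that modulates Tek.

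The libraries held 44585342 UMIs in 4244 barcodes (male), 47522141 in 3986 (female ERaKO) and 44942380 in 3555 (female). After filtering, 3221, 2471 and 2847 cells were kept, with a median of 7325, 8039 and 8857 UMIs per cell. The female ERaKO library stood apart in the share of barcodes above the mitochondrial limit, 34.0%, against 21.0% in the male and 17.7% in the female library. From 4 to 8 barcodes were shared by any pair of libraries. Esr1, which encodes estrogen receptor alpha, gave 2 UMIs in male, 3 in female ERaKO and 3 in female podocytes, and 33, 20 and 19 UMIs in smooth muscle cells; a 3′ count outside the deleted part would not show a deletion, so these counts check nothing. The capillary class carried 3265 (male), 4200 (female ERaKO) and 3723 (female) CPM of Ehd3, against 42.5, 26.9 and 33.5 CPM in the Sox17 class. The arterial label was borne out only in part for the Sox17 class. Of the arterial-type marker list, Sox17 (939, 964 and 814 CPM) and Fbln5 were among its leading genes. It had 4.64 CPM or less of the arterial genes Gja5 and Hey1, and Gja4, Bmx and Cxcl12 are not reported here. A smaller class with 288, 219 and 269 CPM of Gja5 held those transcripts, so the classes are called Sox17 and Gja5 endothelial cells, and a further one rich in Calca is called Calca endothelial.

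The RNA of Kdr, Flt1 and Tek was highest in endothelial cells and that of Vegfa in podocytes, so the 250 bases before the start of these 4 genes are shown (RefSeq, GRCm38.p6, written 5′ to 3′ on the gene's strand). Capitals mark GGAA and its reverse TTCC, the core letters of binding sites of ETS factors, a family known for its part in endothelial gene expression.
Vegfa, chr17:46032378-46032627, minus strand: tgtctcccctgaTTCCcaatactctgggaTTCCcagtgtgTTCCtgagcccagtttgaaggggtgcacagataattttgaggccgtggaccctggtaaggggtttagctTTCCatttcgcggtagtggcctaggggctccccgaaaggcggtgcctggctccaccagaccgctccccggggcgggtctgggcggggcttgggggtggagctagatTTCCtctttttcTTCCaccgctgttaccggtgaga
Kdr, chr5:75978456-75978705, minus strand: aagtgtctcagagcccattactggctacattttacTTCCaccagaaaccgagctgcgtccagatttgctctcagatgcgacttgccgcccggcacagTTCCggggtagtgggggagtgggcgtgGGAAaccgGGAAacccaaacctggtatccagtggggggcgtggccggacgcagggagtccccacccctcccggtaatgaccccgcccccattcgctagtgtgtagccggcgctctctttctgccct
Flt1, chr5:147726012-147726261, minus strand: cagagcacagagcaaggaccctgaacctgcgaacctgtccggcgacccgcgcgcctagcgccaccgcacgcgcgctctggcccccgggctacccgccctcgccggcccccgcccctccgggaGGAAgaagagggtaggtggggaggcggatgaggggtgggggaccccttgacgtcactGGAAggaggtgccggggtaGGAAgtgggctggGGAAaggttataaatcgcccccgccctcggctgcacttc
Tek, chr4:94739039-94739288, plus strand: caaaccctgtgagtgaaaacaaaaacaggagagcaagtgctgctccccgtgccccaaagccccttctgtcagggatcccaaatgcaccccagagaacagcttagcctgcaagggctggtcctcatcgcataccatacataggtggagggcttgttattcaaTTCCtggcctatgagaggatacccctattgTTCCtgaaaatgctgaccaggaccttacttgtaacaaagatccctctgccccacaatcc
Of the 10 genes, 8 had a window in the RefSeq table. Counted on both strands, GGAA stood 6 times in the Vegfa window, 4 times in Kdr, 4 in Flt1 and 2 in Tek. Of 32851 windows of this length, 93.4% held it at least 1 time and the median window held it 3 times, so these letters do not set the windows apart. GGGCGG, the core letters of Sp1 sites, stood 2 times in Vegfa, 2 in Kdr and 3 in Flt1 but 0 times in Tek, and 32.7% of all windows held it. The Tek window had 2 CpG dinucleotides, against 23 in Flt1, 16 in Kdr and 11 in Vegfa, where the median window had 6. AGATAA, the core letters of GATA sites, stood 1 time in Vegfa and 0 times in the other windows shown, and 9.99% of windows held it. ACGTG, 1 form of the core letters of HIF sites, stood in 0 of the windows shown, and 16.6% of windows held it. Other forms of that core, such as GCGTG, were not counted.

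Vegfa (ENSMUSG00000023951, chromosome 17, 46016993 to 46032369, minus strand, GRCm38) was highest in podocytes. Podocytes held 1482 CPM in the male library (17147 UMIs), 1227 in female ERaKO (9341 UMIs) and 1298 in female (22409 UMIs). Each of these values lay above all values of the other 13 classes that had 20 or more cells in every library. With every cell reduced to 4000 UMIs, 98.2%, 98.6% and 98.3% of podocytes had a Vegfa UMI, with medians of 6, 5 and 5 UMIs per cell, so the level was spread over nearly all podocytes. The 5 podocytes with the most Vegfa held between 1.83% and 3.19% of a library's podocyte Vegfa.

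**Figure D1:**
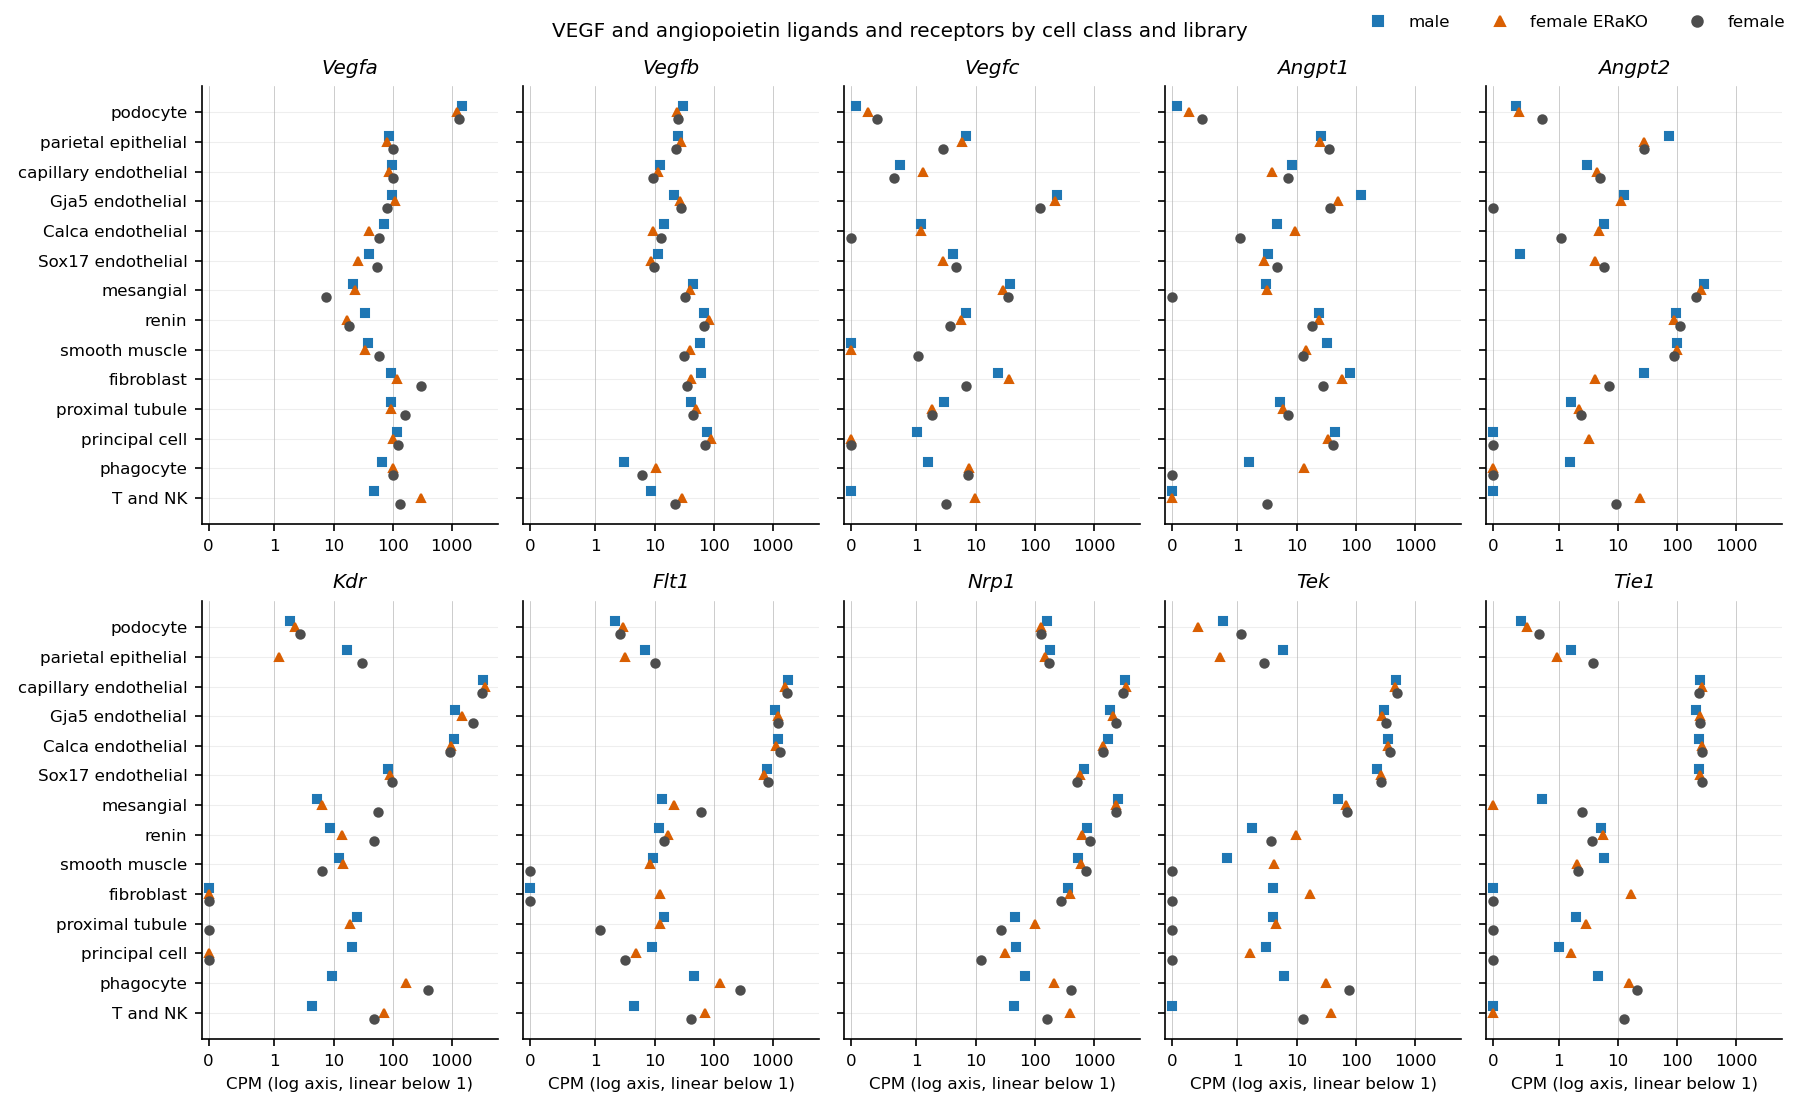
CPM of each gene (horizontal, log axis that is linear below 1) in 14 cell classes (rows) of the male (squares), female ERaKO (triangles) and female (circles) library, each point being 1 library. Vegfa is highest in podocytes at 1482, 1227 and 1298 CPM, Angpt2 in mesangial cells, Vegfc in Gja5 endothelial cells, and Kdr and Flt1 in capillary endothelial cells.

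Podocytes were not uniform in Vegfa. The largest podocyte cluster, led by Clic3, had 1511 (male), 1213 (female ERaKO) and 1265 (female) CPM, and the Gas1-led cluster had 1587, 1299.9 and 1434 CPM. In the podocyte cluster led by Pla2g7, Fgl2, Pamr1 and Cst12 the level was 753 CPM in male, 645 in female ERaKO and 857 in female cells. This cluster lay below both larger clusters in all 3 libraries, and its 108, 54 and 124 cells gave 714, 274 and 1183 UMIs. A cluster led by Cst12 and Igfbp6 that lacked enough podocyte markers for a name had 219, 211 and 288 CPM. The named Cst12 cluster had 4 of the 10 podocyte markers at least 2-fold above all other cells, against 10 in each larger cluster. The part of this in the Vegfa order was not tested. Vegfa was kept out of the genes used for clustering, but podocyte markers were not, and clusters of the same cells allow no test.

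Outside podocytes, Vegfa was set beside the podocyte markers counted in the same cells; the part of podocyte RNA in these levels was not tested. Podocytes had 5.44 (male), 4.91 (female ERaKO) and 5.20 (female) Vegfa UMIs per 100 UMIs of the 10 podocyte markers. Smooth muscle cells had 5.44, 5.03 and 6.77, capillary endothelial cells 6.27, 6.12 and 7.38, and fibroblasts 7.54, 7.22 and 6.14. Capillary cells and fibroblasts lay above the podocyte ratio in each library, and the highest Vegfa level of these 3 classes was 301 CPM, in female fibroblasts. There, 1 of 30 cells held 44.2% of the Vegfa UMIs. Of the named classes, distal tubule cells had the highest Vegfa outside podocytes, 601, 441 and 760 CPM from 38, 18 and 8 cells, at ratios of 6.37, 6.69 and 4.39, and intercalated cells had 182, 260 and 111 CPM from 51, 20 and 15 cells, at ratios of 11.1, 7.58 and 33.6. Vegfa exceeded the podocyte ratio by more than in capillary cells and fibroblasts in parietal epithelial cells (21.7, 15.6 and 17.2), in proximal tubule cells (50.4, 28.0 and 75.2) and in collecting duct principal cells (82.4, 69.2 and 78.8), whose levels were 85.5, 80.4 and 103 CPM, 93.9, 93.0 and 162 CPM, and 120, 103 and 122 CPM. In Sox17 endothelial cells the ratio was 2.55, 1.89 and 3.13, below the podocyte value in each library. As a measure of background, 12.2% of male, 28.0% of female ERaKO and 22% of female T and NK cells held a Vegfa UMI at 4000 UMIs per cell, at median depths of 5030, 6476 and 6008 UMIs. Their levels were 48.5, 300 and 133 CPM, with 72.7%, 95.2% and 81.0% of the UMIs in 5 barcodes. The parietal, proximal tubule and principal cell levels lay above this in male and below it in female ERaKO cells. In female cells only the proximal tubule level of these lay above it.

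**Figure D2:**
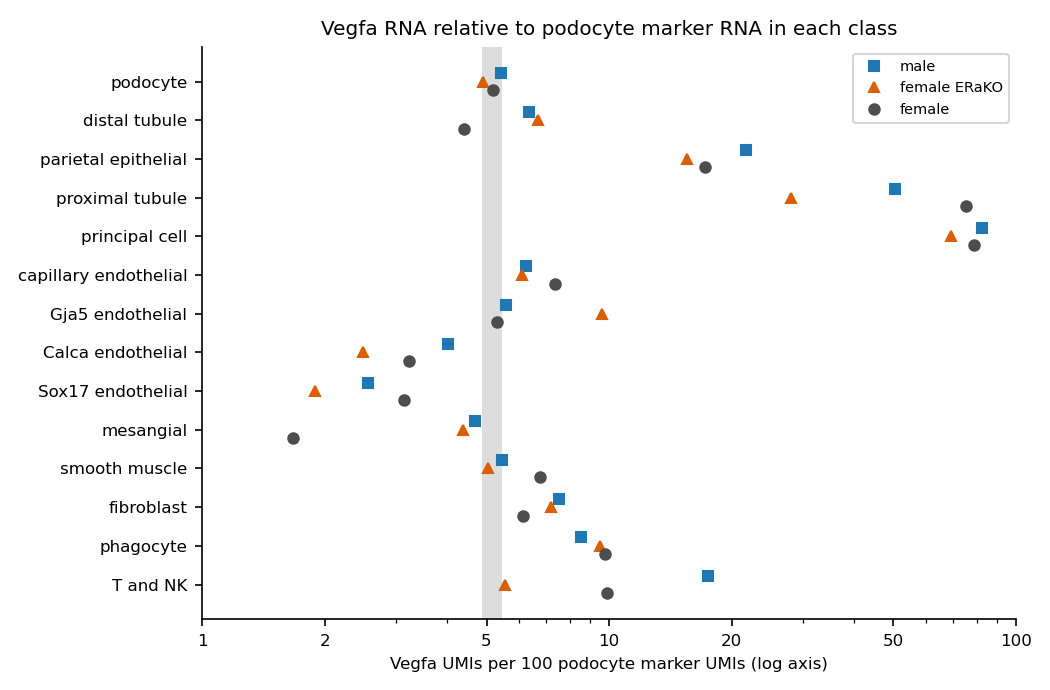
Vegfa UMIs per 100 UMIs of the 10 podocyte markers (horizontal, log axis) in 14 classes (rows) of the male (squares), female ERaKO (triangles) and female (circles) library; the grey band spans the podocyte values, 4.91 to 5.44. Parietal epithelial, proximal tubule and principal cells lie to the right of the band in every library, and Calca and Sox17 endothelial cells to its left.

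Vegfb, a VEGF that binds Flt1, was low and broad. Of the named classes, intercalated cells had the highest values, 137 (male), 186 (female ERaKO) and 116 (female) CPM, from 51, 20 and 15 cells, and distal tubule cells had 96.7, 68.6 and 49.2 CPM from 38, 18 and 8 cells. Among classes with 20 or more cells in every library, principal cells had 75.7 (male), 91.4 (female ERaKO) and 71.7 (female) CPM, and renin cells 69.2, 81.7 and 69.6 CPM. These overlapped, and both lay above proximal tubule cells at 40.9, 49.8 and 45.4 CPM and mesangial cells at 45.0, 39.5 and 32.3 CPM. Podocytes had 30.3, 23.5 and 25.3 CPM, and capillary endothelial cells 12.4, 11.4 and 9.56 CPM.

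Vegfc, the ligand of Flt4 best known for lymphatic growth, was highest in the Gja5 endothelial cells (chromosome 8, 54077606 to 54187096, plus strand). The 63 male, 37 female ERaKO and 27 female cells of that class had 241, 219 and 121 CPM from 112, 57 and 26 UMIs. The female value was the lowest, and 88.5% of its UMIs came from 5 cells, against 46.4% in the male and 50.9% in the female ERaKO class. Capillary endothelial cells gave 2 UMIs in each library, and the Gja5 class lay above them with log2 ratios of 7.11 (interval 6.44 to 11.39) in male, 6.60 (5.51 to 10.51) in female ERaKO and 6.20 (5.52 to 10.64) in female cells. Mesangial cells came next at 38.2, 29.3 and 34.8 CPM, below the Gja5 class in each library. Fibroblasts, at 24.0, 37.4 and 7 CPM, overlapped the mesangial range.

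When all endothelial cells were summed, Vegfc differed between libraries, with 19.5 CPM in male, 13.7 in female ERaKO and 5.90 in female cells. The Gja5 class made up 8.16%, 7.74% and 3.92% of those cells and gave 89.6% (82.9 to 94.3, exact binomial), 86.4% (75.7 to 93.6) and 63.4% (46.9 to 77.9) of their Vegfc UMIs. Without it the remaining endothelial cells had 2.19 (1.17 to 3.75), 1.97 (0.90 to 3.74) and 2.23 (1.25 to 3.67) CPM. The difference over all endothelial cells thus lay in the class that was smallest in the female library, both in its share of cells and in its level, and the intervals of the other endothelial cells overlapped.

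**Figure D3:**
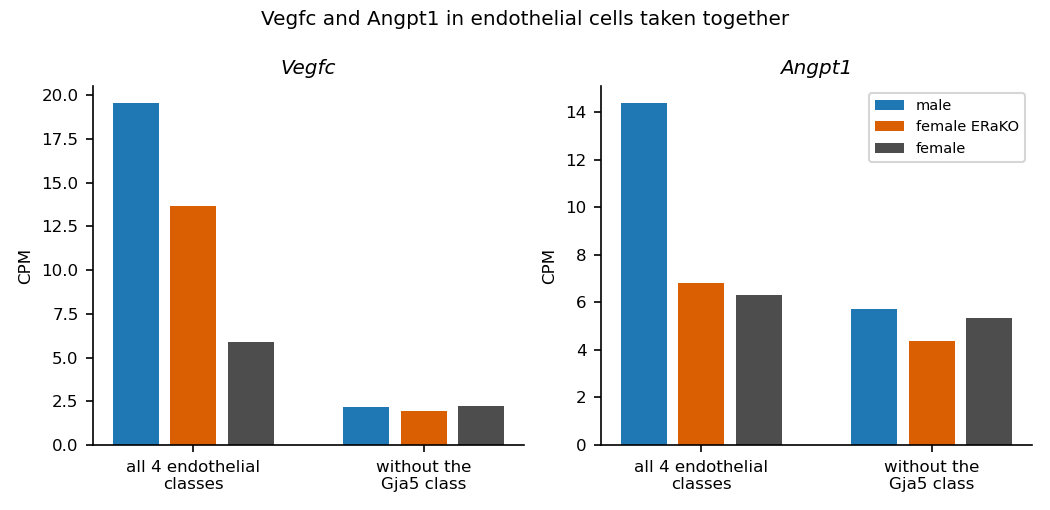
Vegfc (left) and Angpt1 (right) in CPM over all 4 endothelial classes and over the 3 classes left without the Gja5 class, for the male, female ERaKO and female library; each bar is 1 library. Vegfc is 19.5, 13.7 and 5.90 CPM over all classes and 2.19, 1.97 and 2.23 CPM without the Gja5 class.

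Angpt1, the activating ligand of Tek, was low in most classes, and podocytes, which are known as a source of it, gave 1 UMI in male, 2 in female ERaKO and 8 in female cells. Among classes with 20 or more cells in every library, the highest male and female ERaKO values were in Gja5 endothelial cells, at 125 (male), 49.9 (female ERaKO) and 37.2 (female) CPM from 58, 13 and 8 UMIs, and in fibroblasts, at 80.0, 58.1 and 28.0 CPM from 20, 14 and 8 UMIs. The classes overlapped, and in both the male value was the highest. Over all endothelial cells Angpt1 was 14.4 CPM in male, 6.83 in female ERaKO and 6.33 in female cells, and the Gja5 class gave 63.0%, 39.4% and 18.2% of those UMIs. Without that class it was 5.73 (3.97 to 8.01), 4.37 (2.67 to 6.76) and 5.35 (3.74 to 7.4) CPM, with overlapping intervals. Principal cells had 44.0, 34.3 and 40.5 CPM, the highest of the female values, and parietal epithelial cells 25.7, 25.1 and 35.8 CPM. An antisense gene, Gm17473, overlaps Angpt1, and how the counting treated strand is not given in the sources used here.

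Angpt2, which mostly opposes Angpt1 at Tek, was led by mesangial cells, the contractile cells between the capillary loops, at 282 (male), 251 (female ERaKO) and 209 (female) CPM. It was detected in 64.7%, 57.1% and 54.5% of mesangial cells at 4000 UMIs per cell. Renin cells had 95.1, 88.8 and 113 CPM and smooth muscle cells 101, 103 and 90.8 CPM, which overlapped each other and lay below the mesangial class in all 3 libraries. Mesangial cells exceeded smooth muscle cells with log2 ratios of 1.48 (1.19 to 1.80) in male, 1.29 (0.96 to 1.63) in female ERaKO and 1.19 (0.75 to 1.65) in female cells. Capillary endothelial cells held 3.01, 4.45 and 4.95 CPM from 8, 7 and 15 UMIs. Parietal epithelial cells had 73.8 CPM in male, 27.5 in female ERaKO and 27.3 in female cells, and 73.2% of the male UMIs came from 5 of 121 cells. Mcph1 overlaps Angpt2 on the other strand.

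Kdr (ENSMUSG00000062960, chromosome 5, 75932827 to 75978458, minus strand) had the widest range over the endothelial classes of the 5 receptors. Capillary endothelial cells had 3360 CPM in male (8940 UMIs), 3670.5 in female ERaKO (5778 UMIs) and 3187 in female cells (9663 UMIs). Gja5 endothelial cells had 1142, 1485 and 2257 CPM and Calca endothelial cells 1099, 956 and 941.5 CPM. Sox17 endothelial cells had 82.5, 89.5 and 96.5 CPM. By summed level the capillary class was above the Gja5 class, and that above the Calca class, in each library. In male cells the Gja5 and Calca intervals overlapped (1047 to 1243 and 1030 to 1172). At 4000 UMIs per cell, 74.6%, 73.0% and 88.9% of Gja5 cells had a Kdr UMI, against 89.8%, 89.0% and 82.6% of Calca cells. In the Gja5 class 5 cells held 25.4%, 51.7% and 43.6% of the Kdr UMIs. The Sox17 class was far below all of them: the capillary level was 40.2-fold the Sox17 level in male, 40.6-fold in female ERaKO and 32.7-fold in female cells (log2 ratios 5.33, 5.34 and 5.03, intervals 5.14 to 5.56, 5.15 to 5.57 and 4.87 to 5.23). The 5 highest Sox17 cells held 15%, 16.1% and 16.8% of that class's Kdr, and 27.9%, 24.3% and 25.5% of all Sox17 cells had a Kdr UMI at 4000 UMIs per cell, against 100%, 100% and 99.7% of capillary cells. Podocytes gave a UMI in 0.714%, 0.592% and 0.406% of cells at that depth.

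**Figure D4:**
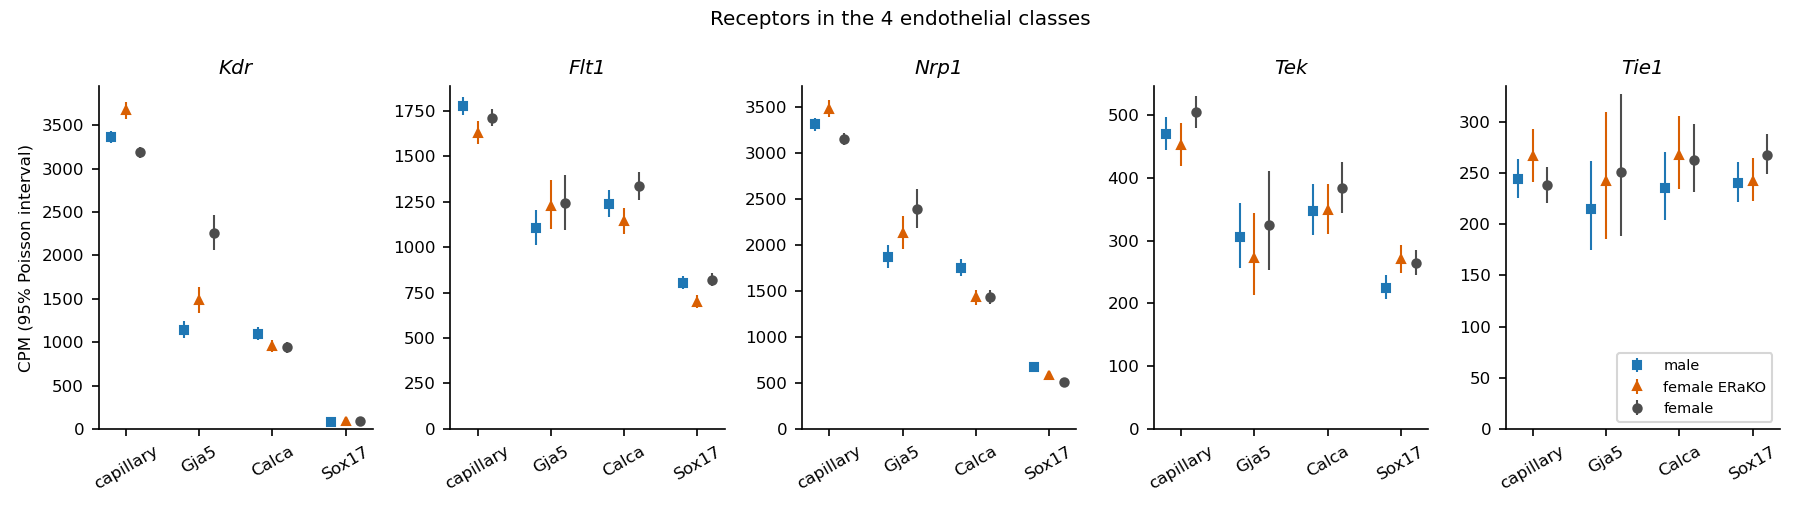
CPM (vertical, linear axis from 0) of the 5 receptors in capillary, Gja5, Calca and Sox17 endothelial cells of the male (squares), female ERaKO (triangles) and female (circles) library, with 95% Poisson intervals of counting error. Kdr is 3187 CPM or more in capillary cells and 96.5 CPM or less in Sox17 cells, while Tie1 lies between 215 and 268 CPM in every class.

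The capillary gene Ehd3 had the same order over the libraries as Kdr in the Gja5 class, at 649 (male), 998 (female ERaKO) and 1876 (female) CPM. Plat, which encodes tissue plasminogen activator, was also highest in female cells of that class but lowest in female ERaKO cells, at 2516, 2183 and 4649 CPM. The part of capillary cells within that class in the Kdr difference was not tested.

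Flt1, which binds VEGF-A, VEGF-B and placental growth factor, varied less between endothelial classes. It was 1775 (male), 1628 (female ERaKO) and 1709 (female) CPM in capillary, 1239, 1143 and 1334 in Calca, 1103, 1228 and 1239.9 in Gja5 and 804, 698 and 821 in Sox17 endothelial cells. The Calca and Gja5 classes overlapped, and the capillary class lay above both and the Sox17 class below both. The capillary level was 2.21-fold the Sox17 level in male, 2.33-fold in female ERaKO and 2.08-fold in female cells.

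Nrp1, which also binds semaphorins, was also high outside the endothelium. Capillary endothelial cells had 3312 (male), 3483 (female ERaKO) and 3157 (female) CPM, followed by mesangial cells at 2604, 2342 and 2332 CPM and Gja5 endothelial cells at 1871, 2130 and 2392 CPM, which overlapped the mesangial range. Calca endothelial cells, at 1755, 1430.6 and 1435 CPM, lay below these 3 classes. Sox17 endothelial cells, at 676, 590 and 508 CPM, overlapped renin cells (758, 617 and 871 CPM) and smooth muscle cells (544, 602 and 722 CPM). At 4000 UMIs per cell, Nrp1 was found in 99.5% of male, 100% of female ERaKO and 100% of female mesangial cells. Podocytes had 161, 127 and 127 CPM, with a UMI in 43.7%, 38.3% and 36.8% of cells at that depth, and their 5 highest cells held 5.46% or less of it. T and NK cells, at 4.88%, 36.0% and 17.1%, were below podocytes in each library by this share. In female ERaKO cells the intervals of the share overlapped (18.0 to 57.5 against 35.0 to 41.6). By level, T and NK cells had 44.1, 392 and 159 CPM of Nrp1, below podocytes in male but above them in female ERaKO and female cells. In T and NK cells 5 barcodes held 100%, 90.1% and 88.0% of the Nrp1 UMIs.

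Tek had a smaller spread. It was 470.2 (male), 452 (female ERaKO) and 504 (female) CPM in capillary, 348, 349 and 383 in Calca, 305, 272 and 325 in Gja5 and 225, 270.2 and 265 in Sox17 endothelial cells. The ranges of these values did not overlap, but counting intervals did. In female ERaKO cells the Gja5 interval (213 to 344, from 71 UMIs) covered the Sox17 one (249 to 293). Gja5 and Calca intervals overlapped in each library. Mesangial cells had 50.2, 69.6 and 72.1 CPM of Tek, found in 16.8%, 18.8% and 20.5% of cells at 4000 UMIs per cell, with 5 cells holding 19.4%, 21.6% and 62.1% of the UMIs. In smooth muscle cells, Tek came to 0.839 CPM in male and 4.14 in female ERaKO cells and gave 0 UMIs in female cells, where a count of 0 allows up to 3.20 CPM. Tie1 was level across the endothelium: 244, 266 and 238 CPM in capillary, 235, 268 and 263 in Calca, 215, 242 and 251 in Gja5 and 241, 242 and 268 in Sox17 endothelial cells. The 4 ranges overlapped, and the capillary to Sox17 log2 ratio of Tie1 was 0.02 (−0.14 to 0.18) in male, 0.13 (−0.05 to 0.32) in female ERaKO and −0.17 (−0.32 to −0.02) in female cells.

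The endothelial classes also differed in how many receptors a cell showed. At 4000 UMIs per cell, all 5 receptors were found in 51.5% of male, 49.4% of female ERaKO and 53.0% of female capillary cells, and in 5.97%, 9.94% and 6.91% of Sox17 cells. Calca cells stood between them at 24.5%, 42.7% and 42.4%, and Gja5 cells at 27.0%, 29.7% and 33.3%. The mean number of receptors per cell was 4.42, 4.39 and 4.44 in capillary and 3.23, 3.23 and 3.28 in Sox17 cells.

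Kdr RNA in cells of other lineages sat in few barcodes. Phagocytes had 9.26 (male), 168 (female ERaKO) and 394 (female) CPM of Kdr, and 5 barcodes held 100%, 100% and 84.6% of it. Their summed 8 endothelial markers moved with it, at 106, 843 and 1160.0 CPM. With the 0, 5 and 10 phagocyte barcodes that had at least 40 UMIs of another lineage's markers left out, Kdr was 9.26 CPM in male and 6.14 in female ERaKO cells and gave 0 UMIs in female cells. T and NK cells without such barcodes had 4.41, 76.5 and 32.3 CPM of Kdr. Kdr in the 44 female mesangial cells came to 78.3% from 1 cell; the level was 5.24 CPM in male, 6.33 in female ERaKO and 57.2 in female mesangial cells.

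The comparison of male with female cells asks how the sexes differ. A gene was counted as apart when its log2 ratio of CPM + 1 passed 1.5-fold and it had at least 20 UMIs over both libraries. In podocytes 0 of the 6 members with enough UMIs were apart, against 3.69% of all genes; male Vegfa was 1.14-fold the female level (log2 ratio 0.19, 0.16 to 0.22), Vegfb 1.19-fold and Nrp1 1.26-fold. Capillary endothelial cells had 0 of 9 apart (background 9.07%), with log2 ratios of 0.08 for Kdr, 0.05 for Flt1, 0.07 for Nrp1, −0.10 for Tek and 0.03 for Tie1. Sox17 endothelial cells had 0 of 9 apart (9.70%), where Nrp1 at 0.41 (0.31 to 0.51) and Vegfa at −0.42 (−0.81 to −0.05) were furthest. Of the 151 female Vegfa UMIs in that class, 50.3% came from 5 cells, and the female level without barcodes with markers of another lineage is given below. Calca endothelial cells had 0 of 7 apart (14.2%), with Nrp1 at 0.29 and Kdr at 0.22. The members with at least 20 CPM thus stayed within 1.5-fold in podocytes and in these endothelial classes, with barcodes with markers of another lineage kept. Without such barcodes 1 member was apart in each of podocytes, Sox17 and Calca endothelial cells.

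In the stroma and tubule the members had fewer UMIs and more were apart, as were more genes of all kinds. Mesangial cells had 3 of 8 apart (19.7%): Vegfa higher in male cells from 29 against 3 UMIs (1.43, −0.15 to 3.90), and Kdr and Flt1 lower from 7 against 23 and 18 against 25 UMIs (13.5 against 62.1 CPM for Flt1), while Angpt2 (0.43) and Nrp1 (0.16) stayed within 1.5-fold. Parietal epithelial cells had 2 of 7 apart (16.7%), Angpt2 at 1.40 (0.85 to 2.06) and Kdr at −0.78 from 32 UMIs in each library (17.1 against 30.2 CPM). Of these Kdr UMIs, 1 of 78 female cells held 75% of the female ones and 5 of 121 male cells 96.9% of the male ones. Smooth muscle cells had 4 of 6 apart (17.3%), with Vegfb at 0.86 (0.24 to 1.54) and Angpt1 at 1.29 (0.39 to 2.42) higher in male cells, Kdr higher from 15 against 6 UMIs, and Vegfa lower at −0.59. Fibroblasts, with 37 male and 30 female cells, had 3 of 4 apart (34.1%), Vegfa lower at −1.70 and Vegfb and Angpt1 higher at 0.76 and 1.48. Of the 86 Vegfa UMIs in female fibroblasts, 1 cell held 44.2% and 5 cells held 76.7%. Proximal tubule cells had 4 of 6 apart (20.8%). Male Vegfa there was 93.9 against 162 CPM (−0.78, −1.03 to −0.54) and Nrp1 47.1 against 26.6 CPM, while Kdr gave 75 UMIs in male and 0 in female cells, where a count of 0 allows up to 1.82 CPM, and Flt1 gave 43 and 2 (2.78, 1.61 to 6.64). In male proximal tubule 5 cells held 85.3% of the Kdr UMIs. The proximal tubule class was made of different clusters in each library: the Miox-led cluster held 98 of 168 male, 37 of 173 female ERaKO and 3 of 78 female cells, and the Pck1-led cluster 0, 54 and 43 cells, and the part of this make-up in the differences was not tested. Of these calls, Vegfb and Angpt1 in smooth muscle were past 1.5-fold in 13 of 13 alternative settings, while Kdr in parietal cells was past it in 6 of 13 and turned positive in others. Vegfa in smooth muscle was also past it in 6 of 13, with values up to 0.25. Vegfa in mesangial cells reached −0.24, Angpt2 in parietal cells −0.55 and Kdr in smooth muscle −0.75 in alternative settings, so the direction of these 3 differences was not kept either. Phagocytes had 5 of 5 apart (26.0%), all lower in male cells, with the endothelial markers given above, and 0 were apart without the mixed barcodes.

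**Figure D5:**
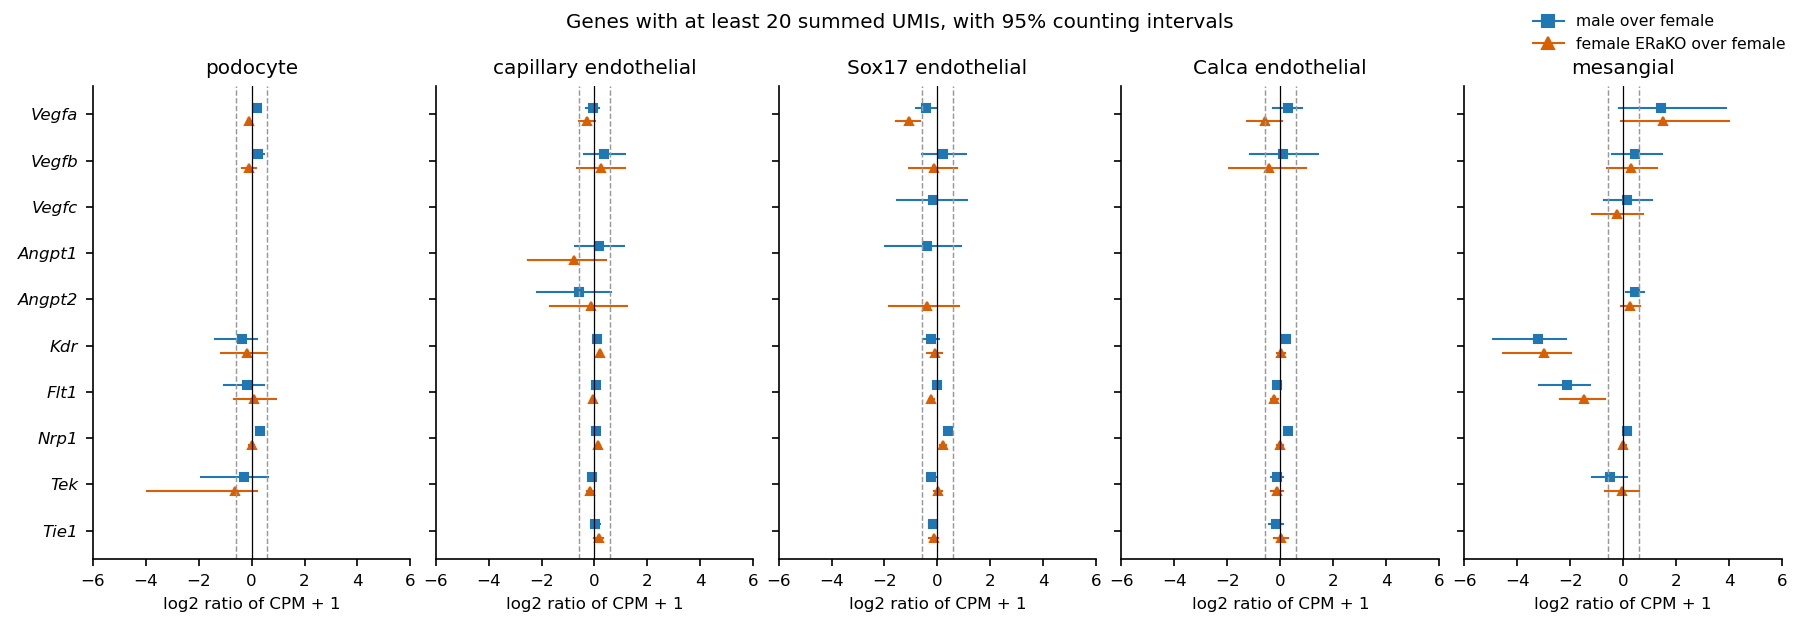
Log2 ratio of CPM + 1 (horizontal) of each gene with at least 20 summed UMIs, male over female (squares) and female ERaKO over female (triangles), in 5 classes; lines are 95% counting intervals without the pseudocount, cut at −6 and 6, and dashed lines mark 1.5-fold. In capillary cells Kdr, Flt1, Nrp1, Tek and Tie1 lie between −0.16 and 0.20, while in mesangial cells Kdr lies at −3.22 and −2.99.

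The comparison of female ERaKO with female cells asks what the knockout changes in females; it shares the female library with the comparison above, so the values are given side by side and no overlap is drawn from them. In podocytes Vegfa was 0.945-fold the female level (−0.08, −0.12 to −0.05), Vegfb was at −0.10 (−0.36 to 0.15), and Nrp1 was 127 CPM in both. Of the 6 podocyte members with enough UMIs, 1 was apart (background 6.32%), Tek, from 3 against 20 UMIs (−0.63, −3.95 to 0.20). It was at 0.394 against 1.16 CPM, and 5 of 1477 female podocytes held 75% of the female UMIs. Capillary endothelial cells had 1 of 9 apart (12.5%), Angpt1, from 6 against 22 UMIs, and had log2 ratios of 0.20 (0.16 to 0.25) for Kdr, −0.07 for Flt1, 0.14 for Nrp1, −0.16 for Tek and 0.16 for Tie1. In Sox17 endothelial cells 1 of 8 was apart (11.8%), Vegfa at −1.06 (−1.57 to −0.64), from 55 against 151 UMIs. Of those 151 female UMIs, 50.3% came from 5 cells. The female ERaKO class held 7 barcodes with at least 40 UMIs of another lineage's markers, and the female class 28. Without such barcodes Vegfa was 24.3 CPM in female ERaKO and 26.2 CPM in female Sox17 cells, and 0 members were apart between these libraries, while 1 was apart between male and female Sox17 cells. Calca endothelial cells had 1 of 7 apart (16.1%), Vegfa at −0.59 (−1.27 to 0.05).

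Mesangial cells had 3 of 8 apart (21.1%) in the female ERaKO comparison, Vegfa higher from 29 against 3 UMIs (1.5, −0.07 to 3.98) and Kdr and Flt1 lower, with Angpt2 at 0.27 and Nrp1 at 0.01. Parietal epithelial cells had 3 of 8 apart (16.9%), Vegfc higher from 24 against 3 UMIs (0.84, −0.67 to 3.42) and Kdr and Flt1 lower from 5 against 32 and 13 against 11 UMIs (3.17 against 10.4 CPM for Flt1), while Angpt2 stood at 0.01 (−0.59 to 0.65). In female parietal cells 1 cell held 75% of the Kdr and 1 cell 81.8% of the Flt1 UMIs. Smooth muscle cells had 2 of 6 apart (19.2%), Vegfa at −0.76 and Kdr higher from 14 against 6 UMIs, and fibroblasts 2 of 4 (30.3%), Vegfa at −1.37 and Angpt1 at 1.03. In fibroblasts 1 cell held 50% of the female ERaKO and 1 cell 44.2% of the female Vegfa UMIs. Proximal tubule cells had 4 of 6 apart (18.8%), with Vegfa at −0.79 (−1.05 to −0.54) and Nrp1 at 1.89 (1.47 to 2.42), 102 against 26.6 CPM. Their Kdr gave 51 UMIs in female ERaKO and 0 in female cells and Flt1 33 and 2, with 92.2% of the female ERaKO Kdr in 5 cells, and the clusters of this class differed between the libraries as given above. Under the alternative settings, Flt1 in parietal cells was past 1.5-fold in 6 of 11 and reached 1.67, Kdr there reached 0.39 and Vegfc −0.016, Vegfa in mesangial cells reached −1.15, and Vegfa and Kdr in smooth muscle reached 0.78 and −0.36, so these 6 differences changed direction. Phagocytes had 4 of 6 apart (26.4%), all lower in female ERaKO cells, and 1 was apart without the mixed barcodes.

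The smaller Gja5 class was outside these counts, having 27 female cells. There, Kdr was at −0.98 (−1.16 to −0.80) in male and −0.60 (−0.80 to −0.41) in female ERaKO cells relative to female, and Vegfc at 0.99 (0.37 to 1.67) and 0.85 (0.16 to 1.59). Angpt1 stood at 1.72 (0.67 to 3.03) and 0.42 (−0.95 to 1.90). The UMIs sat in few cells, which these counting intervals do not cover. The 8 female Angpt1 UMIs came from 3 cells, and 5 cells held 62.1% of the male ones. For Kdr, 5 cells held 25.4% of the male, 51.7% of the female ERaKO and 43.6% of the female UMIs.

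The wider pathway was read from lists that were chosen with earlier results of these data known. Of 18 other ligands, receptors and modifiers, 9 were measured in male and female podocytes, with 1, Hspg2, higher and 0 lower in male cells and a median log2 ratio of 0.03, beside 0.01 over all genes. In female ERaKO podocytes 1 of 9, Nrp2, was higher and 2, Svep1 and Ptprb, were lower, with a median of −0.18 beside −0.02. Over all genes 3.69% were apart in male and 6.32% in female ERaKO podocytes. In capillary endothelial cells 10 were measured, with 1, Sulf1, higher and 0 lower in male and 0 either way in female ERaKO cells (9.07% and 12.5% of all genes were apart; medians 0.06 and 0.09, beside all-gene medians of -0.000151 and 0.05). Svep1, an extracellular matrix protein that binds Tie1, was 15.5 CPM in female ERaKO and 42.7 CPM in female podocytes. Vegfd was led by mesangial cells, at 147, 198 and 134 CPM in male, female ERaKO and female cells, as was Adamts1, a protease that can bind VEGF-A, at 987, 857 and 803 CPM. Ptprb, the phosphatase that restrains Tek, was highest in Gja5 endothelial cells at 2853, 2287 and 2652 CPM.

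Of 22 signalling relays below Kdr and Tek, 17 were measured in capillary endothelial cells, and 0 were apart in either comparison, where 9.07% of all genes were apart in male and 12.5% in female ERaKO cells (medians 0.13 and 0.06). In podocytes 20 were measured, where 3.69% of all genes were apart in male and 6.32% in female ERaKO cells. Pik3r1, a regulatory subunit of PI3 kinase, was 76.6 CPM in male and 79.8 CPM in female ERaKO podocytes, against 48.6 CPM in female podocytes. It was named for its ratio, and 1 gene is not a result for the list. Of 15 genes that VEGF is known to induce in endothelium, 12 were measured in capillary cells: 0 were higher and 1, Apln, lower in male cells, and 0 were apart in female ERaKO cells, beside the same 9.07% and 12.5% (medians 0.08 and 0.32). Esm1 and Dll4, which mark endothelial cells under strong VEGF signalling, were led by the Gja5 class, at 516, 403 and 664 CPM and at 271, 315 and 297 CPM. Both were among the leading genes of the cluster that makes up this class and were not kept out of clustering. Their lead is therefore not independent of how the class was formed. No other gene of this list was led by that class. Apln, Hlx, Fscn1 and Flt4 were led by capillary and Egr3 by Sox17 endothelial cells, each in 2 or 3 libraries. The rest of the list was led by classes outside the endothelium. Nr4a1 is shared by this list and the immediate early list and was 40.7 CPM in male and 43.2 CPM in female ERaKO podocytes, against 21.9 CPM in female podocytes. The summed 14 immediate early genes moved with it, at 7219, 7414 and 5234 CPM in podocytes, where 6 of 14 were higher in male and 5 of 14 in female ERaKO cells and 0 were lower (3.69% and 6.32% of all genes were apart in either direction), and their part in these values was not tested. Of 16 hypoxia genes, 15 were measured in podocytes and 0 were apart in either comparison, beside 3.69% and 6.32% of all genes. In capillary cells 13 were measured, with 0 apart in male cells (9.07% of all genes), and with Egln3 and Vhl higher and Adm lower in female ERaKO cells (12.5%). Of 10 regulators of these ligands, 9 were measured in podocytes; Tcf21, a podocyte transcription factor, was 411 CPM in male and 672 CPM in female podocytes (log2 ratio −0.71) and the 1 of the 9 that was apart (3.69% of all genes), and 0 were apart in female ERaKO podocytes (6.32%).

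Across the 30 class and library sums of the 10 larger classes, the genes whose levels were most like a member's were named by Pearson's r of log2(CPM + 1), a description, since the sums share libraries and classes. Kdr was nearest to Cyyr1 (0.97), Cd300lg and Gimap5, Flt1 to the endothelial adhesion gene Pecam1 (0.98), Ptprb and Lmo2, Tek to Myct1 (0.98), Arhgef15 and Fgd5, and Tie1 to Clec1a (0.98), Ly6c1 and Adgrf5. Nrp1 was nearest to Tmem204 (0.95), Ets1 and Zeb1. Vegfa was nearest to Dpp4 (0.93), Adcy1 and Tmem150c, and Angpt2 to Sept4 (0.93), P3h3 and Ano1. The low ligands had looser neighbours: Vegfb Snhg18 (0.91), Pkia and Pawr, Angpt1 Fbln7 (0.85), Ndst1 and AI838599, and Vegfc Lrrfip2 (0.79). Among the members themselves r was 0.94 for Flt1 with Tek, 0.94 for Flt1 with Tie1 and 0.92 for Kdr with Flt1, and 0.62 for Kdr with Nrp1.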

How the data were processed

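Cells of mouse glomeruli were measured with 10x 3′ libraries, 1 per group (male, female ERaKO, female). The authors deposited whole UMI counts for each gene in each barcode, not normalized, made with Cell Ranger 6.1.2, STAR 2.7.5a and mm10, per the submitters' processing notes; the rule that chose the barcodes is not given in the sources used here. Barcodes needed 500 or more detected genes and a mitochondrial share of UMIs no higher than 25%, and Scrublet calls were removed (112 male, 142 female ERaKO, 53 female) with scanpy 1.11.5. Leiden clustering (leidenalg 0.10.2, resolution 1) on 2000 variable genes, without the 10 genes described, sex-linked or mitochondrial genes, gave 31 clusters. They were named from 19 marker lists into 16 classes, of which 10 had at least 30 cells in each library; unnamed cells made up 3.79% (male), 8.54% (female ERaKO) and 4.81% (female). Class names were rebuilt here and may differ from the study's. UMIs were summed per class and library. Log2 ratios used a pseudocount of 1 CPM, which understates changes of low genes, and their intervals were exact conditional ones without it. Other intervals were exact Poisson or Clopper-Pearson ones, at 95%, for counting error only. A count of 0 allows up to 3 UMIs. For detection shares, each cell was thinned to 4000 UMIs. All 10 genes were named where they reached 20 CPM, with the 3 genes most like each (for Vegfc the nearest is given and the others are not reported here), and list genes past 1.5-fold, at most 4 per list, class and comparison. The members and lists were chosen with earlier results of these data known. The calculations were tested on simulated data. Alternatives used TMM factors (edgeR 4.0.16), median-of-ratios factors (DESeq2 1.42.0), and other filters, clusterings and pseudocounts. Coordinates are GRCm38, and promoter sequences are RefSeq's.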

Additional observations from a re-analysis of the deposited data

How the results depend on the processing

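Each choice of filter, scaling, clustering and weighting was changed by itself. Of the log2 ratios 1451 stayed within their counting intervals, 94 did not, and 16 that had been past 1.5-fold changed sign; of the levels 1050 stayed within their counting intervals and 256 did not; of the counts 190 stayed within 1.5 times and 64 did not. TMM and median-of-ratios scaling moved no count by over 1.5 times. No paired analysis was possible because each group has 1 library, and for the same reason no replicate could be left out. Leaving out cells with markers of another lineage, leaving out the Cst12 and high-UMI podocyte clusters, and admitting classes of 20 cells were chosen after seeing the data. The causes were not tested. Counts of members at least 1.5-fold apart that moved by over 1.5 times, and log2 ratios that changed sign, follow, with the reported value in brackets. With a minimum of 1 count, the count of male over female was 3 in Calca [0], 1 in Sox17 [0], 6 in fibroblast [3], 5 in mesangial [3], 44 over all classes [21], 5 in parietal [2], 10 in phagocyte [5] and 8 in smooth muscle [4]. With a minimum of 1 count, the count of female ERaKO over female was 4 in Calca [1], 3 in Sox17 [1], 7 in fibroblast [2], 5 in mesangial [3], 43 over all classes [22], 5 in parietal [3] and 5 in smooth muscle [2]. With a minimum of 50 counts, the count of male over female was 1 in fibroblast [3] and 0 in mesangial [3]. With a minimum of 50 counts, the count of female ERaKO over female was 0 in capillary [1], 1 in fibroblast [2], 1 in mesangial [3], 12 over all classes [22], 0 in parietal [3], 0 in podocyte [1] and 1 in smooth muscle [2]. With a pseudocount of 5 CPM, the count of female ERaKO over female was 0 in Calca [1], 0 in capillary [1] and 0 in podocyte [1]. With doublet calls kept, the count of male over female was 5 in mesangial [3]. With doublet calls kept, the log2 ratio of male over female was 0.032 for Kdr in parietal [−0.78] and 0.25 for Vegfa in smooth muscle [−0.59]. With doublet calls kept, the count of female ERaKO over female was 0 in Calca [1], 1 in fibroblast [2] and 0 in podocyte [1]. With doublet calls kept, the log2 ratio of female ERaKO over female was 0.78 for Vegfa in smooth muscle [−0.76]. With each cell weighed equally, the count of male over female was 1 in Sox17 [0] and 2 in smooth muscle [4]. With each cell weighed equally, the count of female ERaKO over female was 1 in fibroblast [2], 0 in podocyte [1] and 1 in smooth muscle [2]. With at most 10% mitochondrial UMIs, the count of male over female was 1 in capillary [0]. With at most 10% mitochondrial UMIs, the log2 ratio of male over female was 0.038 for Kdr in parietal [−0.78]. With at most 10% mitochondrial UMIs, the count of female ERaKO over female was 1 in smooth muscle [2]. With at most 10% mitochondrial UMIs, the log2 ratio of female ERaKO over female was 0.037 for Flt1 in parietal [−1.45]. At resolution 2, the count of male over female was 1 in parietal [2] and 1 in podocyte [0]. At resolution 2, the log2 ratio of male over female was −0.072 for Vegfa in mesangial [1.43]. At resolution 2, the count of female ERaKO over female was 1 in mesangial [3] and 1 in parietal [3]. With libraries clustered separately, the count of male over female was 1 in Sox17 [0] and 2 in podocyte [0]. With libraries clustered separately, the log2 ratio of male over female was 1.5 for Kdr in parietal [−0.78]. With libraries clustered separately, the count of female ERaKO over female was 3 in Sox17 [1], 2 in capillary [1], 2 in podocyte [1] and 4 in smooth muscle [2]. With libraries clustered separately, the log2 ratio of female ERaKO over female was 1.67 for Flt1 in parietal [−1.45], 0.39 for Kdr in parietal [−3.81] and −0.016 for Vegfc in parietal [0.84]. With classes given cell by cell, the count of male over female was 3 in Sox17 [0] and 1 in parietal [2]. With classes given cell by cell, the log2 ratio of male over female was −0.24 for Vegfa in mesangial [1.43], −0.55 for Angpt2 in parietal [1.40] and −0.75 for Kdr in smooth muscle [0.88]. With classes given cell by cell, the count of female ERaKO over female was 2 in Sox17 [1] and 0 in capillary [1]. With classes given cell by cell, the log2 ratio of female ERaKO over female was −1.15 for Vegfa in mesangial [1.5] and −0.36 for Kdr in smooth muscle [1.07]. With the 10 genes among the variable genes, the count of male over female was 1 in Sox17 [0] and 2 in proximal tubule [4]. Without cells with markers of another lineage, the count of male over female was 1 in Calca [0], 1 in Sox17 [0], 0 in phagocyte [5] and 1 in podocyte [0]. Without cells with markers of another lineage, the log2 ratio of male over female was 0.025 for Kdr in parietal [−0.78]. Without cells with markers of another lineage, the count of female ERaKO over female was 0 in Calca [1], 0 in Sox17 [1], 1 in mesangial [3], 1 in phagocyte [4] and 1 in smooth muscle [2]. Without the Cst12 and high-UMI podocyte clusters, the count of female ERaKO over female was 0 in podocyte [1].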
